A study of Mus musculus with 24 samples.

Results

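The comparison described here set livers of mice lacking both Rab30 and Cpt2 in hepatocytes (DKO) against livers of their littermate controls (ff;ff), all from young adult males after a 24 h fast. It was chosen by its library labels: 4 DKO livers (DKO232, DKO233, DKO247 and DKO943) and 4 ff;ff livers (ffff238, ffff240, ffff242 and ffff248), 8 of the 24 libraries of the series. Mice of both groups carried loxP sites in Rab30 and in Cpt2. The DKO mice also carried albumin-Cre, a recombinase transgene driven by the albumin promoter and so active in hepatocytes, while the ff;ff mice carried none, which means that the transgene and the loss of both genes cannot be told apart. A further 4 livers labelled Cpt2L-/-, with albumin-Cre and floxed Cpt2 alone, served as a reference in a closing comparison. RNA of whole liver was sequenced, 1 library from each liver.

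Cpt2, carnitine palmitoyltransferase 2, sits in the inner mitochondrial membrane and turns acylcarnitines back into acyl-CoA, the last step in bringing long-chain fatty acids to beta-oxidation. A fasted liver depends on this pathway for energy and ketone bodies, and fatty acids that are not burned are stored in lipid droplets, secreted in lipoproteins, or shortened in peroxisomes. Free fatty acids also activate the nuclear receptor Ppara, which turns on genes for fatty acid uptake and oxidation. Rab30 is a small GTPase of the Golgi apparatus, the compartment through which hepatocytes send albumin, clotting factors, complement and lipoproteins into the blood.

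Total counts ranged from 13537598 to 20196355 in the DKO libraries and from 13230854 to 17508850 in the ff;ff libraries. Expression was given as CPM, the counts of a gene scaled to library size after TMM normalization over the 8 libraries, and levels of different genes were compared as the authors' FPKM, which divides by gene length. Groups were compared with edgeR's quasi-likelihood test, and adjusted p below means its p, unless another tool is named, after Benjamini-Hochberg adjustment over all 13389 genes tested. A gene was taken to have risen or fallen where the adjusted p was under 0.05 and the change at least 1.2-fold. Values of single libraries are listed in the order DKO232, DKO233, DKO247, DKO943 and then ffff238, ffff240, ffff242, ffff248, and errors of log2 fold changes are standard errors. Each call was repeated under up to 14 alternatives, 8 with 1 library left out and 6 with another test, scaling, filter or set of libraries, and the number of alternatives in which a named gene lost its call is given in parentheses after its name. Albumin mRNA took 4.38% to 5.46% of the counts in DKO and 6.99% to 8.16% in ff;ff. Transcripts of the mitochondrial genome took 6.6% to 7.67% of the counts in DKO, 4.66% to 5.3% in ffff240, ffff242 and ffff248, and 7.86% in ffff238, which also had the fewest genes with a count (18276, against 19105 to 20155 in the other 7 libraries). Without ffff238, 2675 genes passed, of which 1934 had passed in the same direction with it. In bulk liver, fewer cells of a type and less RNA per cell cannot be told apart.

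Whole-gene counts of Rab30 were higher in the libraries labelled DKO than in those labelled ff;ff. Rab30 (ENSMUSG00000030643, GRCm38 chr7:92741603-92844535, + strand) stood at 129, 99.6, 229.8 and 180.4 CPM in DKO and 25.6, 44.8, 44.7 and 30.7 CPM in ff;ff. Every library labelled DKO was above every library labelled ff;ff, with log2 fold change 2.13 ± 0.28, edgeR adjusted p = 5.52e-04. Rab30 was also called higher in Cpt2L-/- against ff;ff, in livers where Rab30 was not targeted. The paper reports a stronger fasting rise of Rab30 in Cpt2L-/- livers, and it assayed Rab30 in DKO livers by qRT-PCR and immunoblot. Cpt2 (ENSMUSG00000028607, GRCm38 chr4:107903981-107923610, - strand) stood at 97.2, 94.8, 105 and 118 CPM in DKO and 127, 139.5, 133 and 126 CPM in ff;ff, lower in every DKO library, with log2 fold change -0.34 ± 0.13, edgeR adjusted p = 0.0911, which did not pass, while DESeq2's Wald test (adjusted p = 0.0374) and limma-voom (log2 fold change -0.43, adjusted p = 0.00854) called it lower. The floxed Rab30 mice were made by flanking a single exon, and a count over the whole gene does not show whether that exon is missing. The counts therefore neither check nor contradict the deletion itself, and DKO and ff;ff mean the libraries labelled so throughout, in every direction given.

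Of the 13389 genes tested, 2157 (16.1%) passed, 1054 (7.87%) higher and 1103 (8.24%) lower in DKO, and the median log2 fold change over all genes was -0.02. The change was at least 2-fold for 451 of the higher and 537 of the lower genes. The CPM of the groups did not overlap at all for 2768 genes (20.7%). Calls were more frequent among abundant transcripts and leaned downward there. Of the 443 genes with a mean FPKM of 100 or more, 38 were higher and 131 lower (38.1% called), while of the 3054 genes under 1 FPKM 142 were higher and 111 lower (8.28% called).

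**Figure D1:**
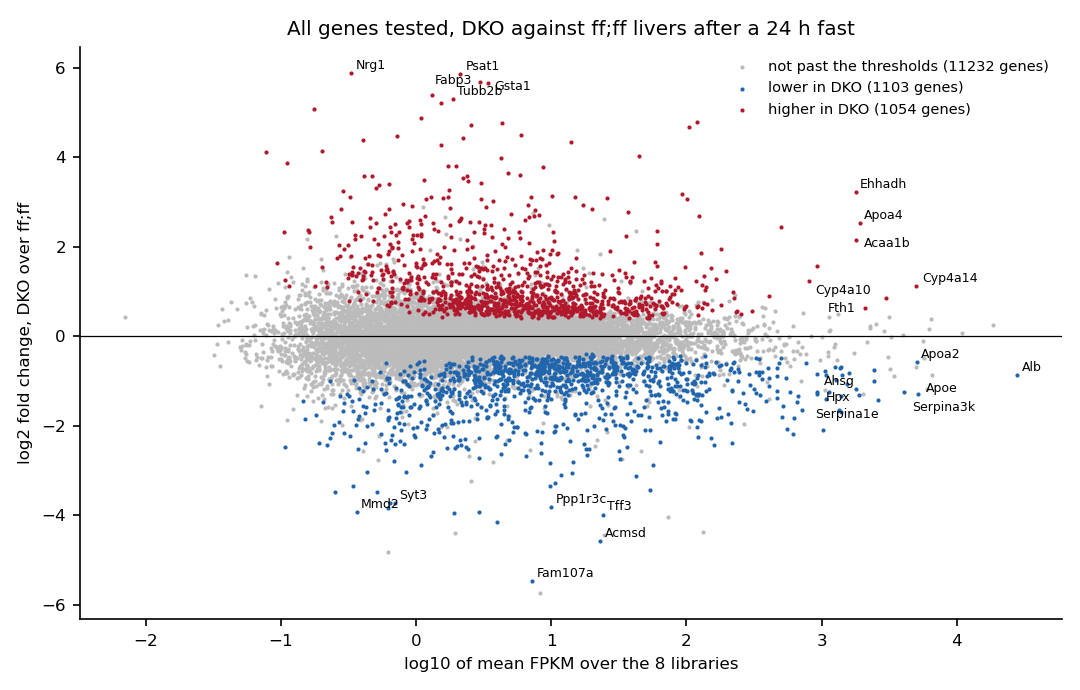
Log2 fold change of DKO over ff;ff libraries (y axis) against the log10 of the mean FPKM over the 8 libraries (x axis) for all 13389 genes tested, red for the 1054 higher, blue for the 1103 lower and grey for those not past the thresholds. Genes with at most 3 counts in every library of the lower group are drawn at the lower bound of their fold. At the right edge, among the most abundant transcripts, Cyp4a14, Apoa4 and Ehhadh stand above 0 and Alb, Apoe and Serpina3k below it.

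The transcripts that rose most included genes of lipid handling, serine synthesis and signalling. Rbm24, an RNA-binding protein, had 6.04, 4.46, 15.7 and 8.97 CPM in DKO and at most 3 counts in any ff;ff library, which makes it at least 42.1-fold higher. Psat1, an enzyme of serine synthesis, was at 9.93, 6.62, 25.8 and 26.1 CPM in DKO and 0.259, 0.356, 0.489 and 0.0626 CPM in ff;ff. No library of either group came near the other, and DKO247 and DKO943 stood above DKO232 and DKO233 (log2 fold change 5.85 ± 0.62, edgeR adjusted p = 2.34e-04). Nrg1, a ligand of ErbB receptors, was at 3.82, 3.57, 8.01 and 10.7 CPM in DKO and 0.346, 0.119, 0 and 0 CPM in ff;ff. It was detected in all DKO livers and nearly absent from ff;ff, again with DKO247 and DKO943 the highest (log2 fold change 5.88 ± 0.71, edgeR adjusted p = 3.47e-04). Pdk4 (ENSMUSG00000019577, GRCm38 chr6:5483351-5496309, - strand), the kinase that shuts off pyruvate dehydrogenase, was by far the most abundant of this group, at 802, 739, 829 and 360.5 CPM in DKO and 10.9, 40.4, 40.9 and 14.6 CPM in ff;ff. The lowest DKO library, DKO943, was still well above the highest ff;ff library (log2 fold change 4.67 ± 0.52, edgeR adjusted p = 5.74e-04). The remaining genes among the 12 with the largest rise were Fabp3 (log2 fold change 5.69), a fatty acid binding protein of heart and muscle, the glutathione transferase Gsta1 (5.65), the tubulin Tubb2b (5.29), the fatty acid elongase Elovl7 (5.2), the ephrin receptor Ephb2 (5.07), the glycerol channel Aqp3 (4.88), the stress protein Nupr1 (4.76) and Ypel4 (4.71). Without ffff240 the fitted log2 fold changes of Fabp3, Gsta1, Ephb2 and Aqp3 were 9.2, 7.62, 7.04 and 5.54, and without ffff238 that of Nrg1 was 7.04, values that depend on the prior count of the fit where the controls left hold few or no reads.

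Those that fell most included regulators of glycogen, bile acids and NAD synthesis. Ppp1r3c, which brings protein phosphatase 1 to glycogen, was at 3.75, 4.59, 2.45 and 3.28 CPM in DKO and 53.4, 71.8, 33.9 and 39.3 CPM in ff;ff. Both groups were tight and far apart (log2 fold change -3.82 ± 0.27, edgeR adjusted p = 2.64e-05). Acmsd, which diverts tryptophan breakdown away from NAD, was at 2.64, 4.08, 8.78 and 4.995 CPM in DKO and 124, 47.2, 276 and 42.2 CPM in ff;ff. The ff;ff livers varied widely, with ffff242 highest, but none reached the DKO range (log2 fold change -4.57 ± 0.78, edgeR adjusted p = 0.00802). Cyp2c54, a P450, was at 15.5, 15.9, 10.6 and 18.7 CPM in DKO and 128, 152, 142 and 105 CPM in ff;ff, a drop of similar size in all 4 livers (log2 fold change -3.12 ± 0.20, edgeR adjusted p = 1.09e-05). Saa4, the constitutive serum amyloid A, was at 21.6, 24.8, 7.49 and 20.5 CPM in DKO and 237, 193, 164 and 211 CPM in ff;ff, again without overlap (log2 fold change -3.43 ± 0.32, edgeR adjusted p = 9.37e-05). The other genes among the 12 with the largest fall were Fam107a (-5.46), Tff3 (-3.98), Mmd2 (-3.93), Syt3 (-3.72), Xlr3a (-3.71), the amino acid transporter subunit Slc3a1 (-3.33), Nr0b2 (-3.29), a repressor of bile acid synthesis, and Enho (-3.1), a hepatokine. Acmsd had a log2 fold change of -3.79 without ffff242, and Xlr3a of -2.74 without ffff238. The log2 fold change of Fam107a, where ffff242 stood at 158 CPM and the other controls at 11.4 to 27.9 CPM, ran from -6.47 to -3.95 as single libraries were left out. The calls of Fam107a (in 5), Tff3 (in 1) and Nr0b2 (in 6) were lost in alternatives, with adjusted p up to 0.118.

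Genes of fatty acid oxidation outside the deleted step leaned upward. Of 28 genes of mitochondrial fatty acid oxidation, 16 rose and 1 fell, with a median log2 fold change of 0.66 against -0.02 over all genes. The 3 with the largest increase were Acot2, Ucp3 and Cd36. The uncoupling protein Ucp3 had 3.06, 2.48, 1.94 and 2.54 CPM in DKO and at most 3 counts in any ff;ff library, at least 12.01-fold higher. Acot2, a mitochondrial thioesterase that frees fatty acids from CoA, was at 181, 188, 183 and 169 CPM in DKO and 3.98, 20.7, 8.38 and 11.1 CPM in ff;ff. DKO livers were nearly uniform, and all ff;ff livers were many times lower (log2 fold change 4.02 ± 0.41, edgeR adjusted p = 2.84e-04). Cd36 (ENSMUSG00000002944, GRCm38 chr5:17781690-17888801, - strand), the fatty acid translocase of the plasma membrane, was at 195, 195, 134 and 115 CPM in DKO and 21, 31.9, 11.1 and 11.6 CPM in ff;ff, with no overlap (log2 fold change 3.08 ± 0.36, edgeR adjusted p = 4.28e-04).

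The enzymes of the spiral itself moved less. Hadha and Hadhb, the subunits of the trifunctional protein, rose by 0.88 ± 0.17 and 1.01 ± 0.17, the acyl-CoA dehydrogenases Acadl and Acadvl by 0.86 ± 0.15 and 0.48 ± 0.14, and the acylcarnitine carrier Slc25a20 by 0.51 ± 0.13, all on the log2 scale. Cpt1a, the gatekeeper of the pathway, was at 1346, 1360.3, 1135 and 850.4 CPM in DKO and 820.3, 939, 993 and 743 CPM in ff;ff, higher in 3 of 4 DKO livers than in any ff;ff liver, but did not pass (log2 fold change 0.42 ± 0.19, edgeR adjusted p = 0.149), except in limma-voom (adjusted p = 0.0199). The member that fell, Etfb, which carries electrons from the dehydrogenases, was at 13.2, 16.6, 13.9 and 15.7 CPM in DKO and 13.7, 35.5, 43.8 and 38.4 CPM in ff;ff. Here ffff238 lay inside the DKO range while the other ff;ff livers were above it (log2 fold change -1.15 ± 0.29, edgeR adjusted p = 0.0198). The call was lost without DKO232, DKO247 or ffff248 and in the fit over 24 libraries, with adjusted p up to 0.113. Of 9 ketone body genes tested (22.2% called, near the 16.1% of all genes), the beta-hydroxybutyrate exporter Slc16a6 rose by 1.26 and Bdh2 fell by 1.33. The calls of Acadvl (in 7), Slc25a20 (in 2) and Slc16a6 (in 3) were lost in alternatives, with adjusted p up to 0.0984.

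Of 33 peroxisomal genes 14 rose and 3 fell (median 0.51), with 8 rising where DKO232, DKO233 or ffff248 was left out. Ehhadh (ENSMUSG00000022853, GRCm38 chr16:21761287-21787807, - strand), the bifunctional enzyme of peroxisomal beta-oxidation, was at 11769, 10193, 5783 and 9541 CPM in DKO and 990.3, 1366, 728 and 939 CPM in ff;ff. Every DKO liver was several times above the highest ff;ff liver, and by mean FPKM Ehhadh went from 345 in ff;ff to 3223 in DKO (log2 fold change 3.21 ± 0.27, edgeR adjusted p = 3.25e-05). Acaa1b, a peroxisomal thiolase, was at 6798, 4988, 4391 and 5958 CPM in DKO and 991, 1701, 906 and 1418 CPM in ff;ff (log2 fold change 2.14 ± 0.24, edgeR adjusted p = 1.72e-04). The groups stood apart, with DKO247 the lowest DKO liver. Pex11a, which acts in peroxisome division, rose by 1.85 ± 0.21, while Hao1, Pecr and Acox2, the last an oxidase of the bile acid side chain, fell by 1.97, 1.48 and 1.18.

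In omega-oxidation, where P450s of the Cyp4a family hydroxylate the far end of a fatty acid, 5 of 11 genes rose and 2 fell (median 0.72). Cyp4a14, the most abundant transcript among all that rose, was at 17276, 19231, 17029 and 15494 CPM in DKO and 7325, 9529.9, 7728 and 7196 CPM in ff;ff. The groups did not overlap, and mean FPKM was 6837 in DKO against 3123 in ff;ff (log2 fold change 1.12 ± 0.18, edgeR adjusted p = 0.00143). Cyp4a10 rose by 0.85 ± 0.21, Cyp4a31 by 1.31, Cyp4a32 by 1.34, and Aldh3a2, which oxidises fatty aldehydes, by 1.94. These Cyp4a genes are near-identical copies, so reads could have been split among them. The leukotriene hydroxylases Cyp4f14 and Cyp4f15 fell by 1.9 and 1.1. Without DKO232, DKO233 or ffff238 only 3 genes of the list rose. The calls of Cyp4a31 (in 6), Cyp4a32 (in 5), Cyp4a14 (in 1) and Cyp4a10 (in 1) were lost in alternatives, the last 2 in the fit over 24 libraries alone, with adjusted p up to 0.24.

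Of the 12 acyl-CoA thioesterases, which hydrolyse acyl-CoA to free fatty acid, 7 rose and only Acot11 fell (median 1.03). The cytosolic Acot1 was at 894, 851, 749.8 and 757 CPM in DKO and 59.99, 161, 149.9 and 133 CPM in ff;ff, with DKO livers close together and above all controls (log2 fold change 2.69 ± 0.27, edgeR adjusted p = 9.37e-05). Acot9 rose by 2.48, Acot4 by 1.4 and Acot6 by 1.38. The calls of Acot4 (in 6) and Acot6 (in 4) were lost in alternatives, with adjusted p up to 0.161. A search for the direct repeat bound by Ppara and its partner Rxr (DR1, a pair of AGGNCA half-sites with 1 base between them, on either strand) in RefSeq promoter windows, from 250 bases before to 50 after each start site, found it in 125 of 32851 windows (0.381%). Of the genes that rose, 14 of 16 mitochondrial, 10 of 14 peroxisomal, 2 of 5 omega-oxidation and 9 of 10 lipid droplet genes had a window. None of these held it, which says only that these letters were not in that stretch. A motif this rare would seldom be met in so few windows, and the genes without a window were not searched.

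**Figure D2:**
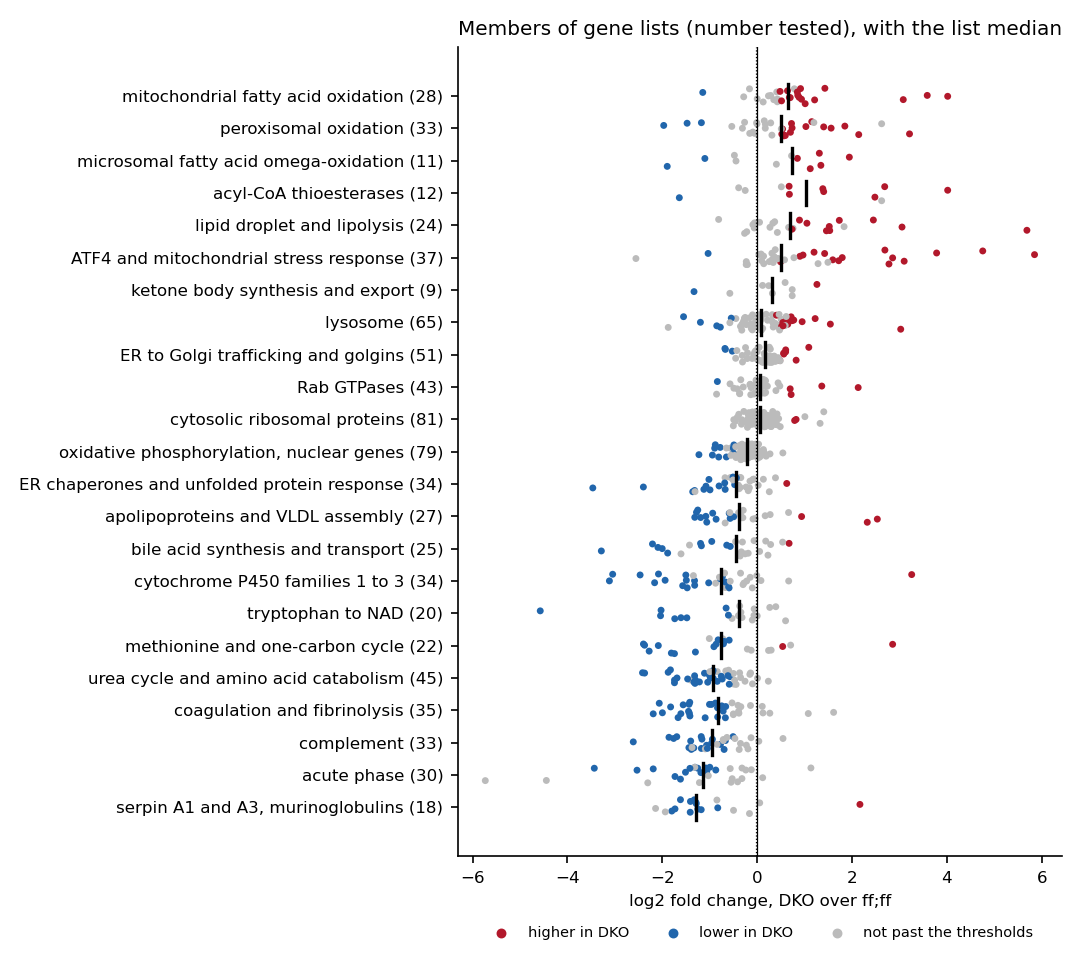
Log2 fold change of DKO over ff;ff libraries (x axis) for every tested gene of 23 gene lists (rows), each point 1 gene, red where it rose, blue where it fell and grey otherwise, with the black bar at the median of the list. Genes with at most 3 counts in every library of the lower group, such as Ucp3, are drawn at the lower bound of their fold. Oxidation and lipid droplet lists sit to the right of 0 and the amino acid, P450, complement, coagulation and acute phase lists to the left.

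Some genes of fat storage rose alongside. Of 24 lipid droplet and lipolysis genes 10 rose and none fell (median 0.70). Plin2 (ENSMUSG00000028494, GRCm38 chr4:86648386-86670060, - strand), the main droplet coat protein of hepatocytes, was at 2506, 2398, 3636 and 3042 CPM in DKO and 384, 727, 470.4 and 539 CPM in ff;ff. The lowest DKO liver was far above the highest control (log2 fold change 2.45 ± 0.23, edgeR adjusted p = 6.28e-05). Cidec, which fuses droplets into larger ones, was at 255, 247, 446 and 344 CPM in DKO and 25.9, 54.6, 49.3 and 25.6 CPM in ff;ff, also without overlap (log2 fold change 3.05 ± 0.30, edgeR adjusted p = 1.29e-04). Fabp3 was at 6.11, 4.78, 1.16 and 6.75 CPM in DKO and 0, 0.297, 0 and 0 CPM in ff;ff, in ff;ff detected in ffff240 alone. Hilpda, an inhibitor of the lipase Atgl, rose by 1.73, Fabp4 by 1.52 and Plin3 by 1.05. The calls of Plin3 (in 4) and Hilpda (in 1) were lost in alternatives, with adjusted p up to 0.0601.

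Triglyceride synthesis was divided. Of 15 genes 3 rose and 2 fell (median 0.31). The monoacylglycerol acyltransferase Mogat2, a gene of intestinal fat absorption, had 1.74, 2.48, 2.58 and 1.99 CPM in DKO and at most 3 counts in any ff;ff library, at least 10.5-fold higher. Gpat3 and the glycerol phosphate dehydrogenase Gpd2 rose by 1.93 and 1.4, while Agpat2 and Gpat4 fell by 0.99 and 0.72. Fatty acid synthesis leaned the other way, with 7 of 23 genes lower and 4 higher. Thrsp, an activator of lipogenesis, fell by 2.32 ± 0.29, Elovl6 by 1.13, the master regulator Srebf1 by 1.11, ATP citrate lyase Acly by 0.89 and Mlxipl, encoding the glucose sensor ChREBP, by 0.87. The 4 that rose were Elovl7, at 10.6, 6.12, 17.7 and 12.03 CPM in DKO and 0.519, 0.356, 0.0698 and 0.313 CPM in ff;ff (log2 fold change 5.2 ± 0.45, edgeR adjusted p = 4.05e-05), Aacs (1.34), Elovl5 (1.28) and malic enzyme Me1 (1.22). Of 28 cholesterol genes 6 fell, among them the HDL receptor Scarb1 (-1.18), and Soat2, which makes cholesteryl ester, rose by 0.58 (25% called, against 16.1% of all genes). As single libraries were left out, 4 to 9 cholesterol genes fell. Without ffff242, 5 triglyceride synthesis genes rose. The calls of Soat2 (in 7), Gpat4 (in 4) and Mlxipl (in 1) were lost in alternatives, with adjusted p up to 0.115.

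Genes listed for the transcription factor ATF4 and for the mitochondrial stress response rose in part: 15 of 37 tested were higher and 1, Cebpb, lower (median 0.49). ATF4 binds, with C/EBP partners, a composite element spelled TGATGNAA, read on either strand (TTNCATCA on the other). This element occurred in 1304 of the 32851 RefSeq promoter windows (3.97%). It was present in 6 of the 15 genes of the list that rose (Atf3, Fgf21, Gars, Nupr1, Trib3 and Vldlr) and in 3 of the 15 with a window that were not called (Aars, Asns and Chac1). A match is a description of the letters, not of binding. The list was gathered around ATF4 and mitochondrial stress. Its genes were counted if any of their windows held the element, while the background counts single windows. The shares were therefore not compared. The windows of 4 genes that rose are shown with the element in capitals, together with Asns, a textbook ATF4 target that did not pass the test here (RefSeq, build GRCm38.p6, 5′ to 3′ on the strand of the gene).

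Nupr1, GRCm38.p6 chr7:126625421-126625720, - strand: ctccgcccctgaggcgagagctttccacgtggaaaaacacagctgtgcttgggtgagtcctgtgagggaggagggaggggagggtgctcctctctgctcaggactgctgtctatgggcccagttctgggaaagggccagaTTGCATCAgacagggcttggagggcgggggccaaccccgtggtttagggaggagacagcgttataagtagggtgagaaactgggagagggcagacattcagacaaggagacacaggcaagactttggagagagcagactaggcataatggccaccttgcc
Fgf21, GRCm38.p6 chr7:45615441-45615740, - strand: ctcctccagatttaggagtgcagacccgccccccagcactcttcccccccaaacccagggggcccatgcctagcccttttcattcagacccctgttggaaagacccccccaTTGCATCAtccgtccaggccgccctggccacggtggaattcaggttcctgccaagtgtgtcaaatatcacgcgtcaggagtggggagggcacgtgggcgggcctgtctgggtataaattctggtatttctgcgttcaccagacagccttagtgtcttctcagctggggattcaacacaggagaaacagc
Atf3, GRCm38.p6 chr1:191183284-191183583, - strand: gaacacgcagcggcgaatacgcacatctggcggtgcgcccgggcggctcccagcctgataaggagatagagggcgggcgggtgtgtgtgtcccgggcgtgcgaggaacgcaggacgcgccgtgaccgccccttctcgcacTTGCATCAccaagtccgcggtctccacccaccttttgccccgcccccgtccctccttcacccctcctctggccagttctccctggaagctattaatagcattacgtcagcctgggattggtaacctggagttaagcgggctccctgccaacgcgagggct
Trib3, GRCm38.p6 chr2:152344011-152344310, - strand: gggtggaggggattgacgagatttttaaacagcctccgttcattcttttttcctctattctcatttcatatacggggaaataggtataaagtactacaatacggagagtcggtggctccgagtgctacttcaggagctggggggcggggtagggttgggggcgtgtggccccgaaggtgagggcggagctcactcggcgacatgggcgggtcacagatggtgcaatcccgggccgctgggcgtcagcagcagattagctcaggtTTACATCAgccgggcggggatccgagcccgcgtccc
Asns, GRCm38.p6 chr6:7693160-7693459, - strand: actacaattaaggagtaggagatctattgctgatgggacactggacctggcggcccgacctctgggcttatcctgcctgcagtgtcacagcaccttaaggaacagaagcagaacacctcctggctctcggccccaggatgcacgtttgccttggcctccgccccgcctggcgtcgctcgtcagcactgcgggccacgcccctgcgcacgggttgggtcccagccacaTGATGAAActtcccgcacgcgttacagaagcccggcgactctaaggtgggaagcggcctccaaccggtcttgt

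Nupr1, a small stress-induced chromatin protein, whose element begins 110 bases before the start site, was at 12.4, 11.02, 38.3 and 20.1 CPM in DKO and 0.173, 1.37, 0.977 and 0.375 CPM in ff;ff. All DKO livers were above all controls, DKO247 most of all (log2 fold change 4.76 ± 0.58, edgeR adjusted p = 6.50e-04). Atf3, a transcription factor of the ATF family, was at 20.8, 22.04, 55.98 and 37.97 CPM in DKO and 0.173, 3.502, 3.42 and 2.57 CPM in ff;ff, with DKO247 and DKO943 again the highest and ffff238 the lowest control (log2 fold change 3.78 ± 0.60, edgeR adjusted p = 0.00417). Trib3, a pseudokinase that restrains ATF4 signalling, was at 21.5, 13.1, 45.8 and 27.4 CPM in DKO and 4.15, 5.34, 16.1 and 7.07 CPM in ff;ff. The control ffff242 overlapped the DKO range (log2 fold change 1.72 ± 0.49, edgeR adjusted p = 0.0454), and with 1 library left out the call held only where that was DKO233 or ffff242. It was also lost with no filter on low counts, with adjusted p up to 0.16 in all. Mthfd2, of the mitochondrial folate cycle, was at 5.49, 4.78, 16.6 and 15.4 CPM in DKO and 1.297, 1.66, 1.61 and 1.25 CPM in ff;ff without overlap (log2 fold change 2.86 ± 0.43, edgeR adjusted p = 0.00116).

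Not every gene of the list was called. Asns, asparagine synthetase, was at 3.61, 2.48, 14.3 and 8.603 CPM in DKO and 10.98, 3.799, 5.66 and 6.19 CPM in ff;ff. The groups overlapped fully (log2 fold change 0.13 ± 0.52, edgeR adjusted p = 0.896). Atf4 mRNA itself was at 93.6, 90.6, 167 and 143 CPM in DKO and 66.3, 104, 121 and 106 CPM in ff;ff, with log2 fold change 0.31 ± 0.23, edgeR adjusted p = 0.411. Aldh18a1, of proline synthesis, rose by 1.79, the lipoprotein receptor Vldlr by 2.69, the glycine transporter Slc6a9 by 1.59, Ddit3, encoding CHOP, by 1.42, and the seryl and glycyl tRNA synthetases Sars and Gars by 0.97 and 0.9. The mTOR inhibitor gene Ddit4 was at 5.42, 8.98, 59.5 and 18.5 CPM in DKO and 22.6, 41.8, 449.7 and 29.2 CPM in ff;ff, where ffff242 stood many times above the other controls (log2 fold change -2.56 ± 1.33, edgeR adjusted p = 0.265), a gene that only limma-voom called (adjusted p = 0.0373) and that stood at -0.45 without ffff242 and -3.61 without DKO247. The calls of Aldh18a1 (in 7), Ddit3 (in 7) and Vldlr (in 4) were lost in alternatives, with adjusted p up to 0.233. Without DKO247 the log2 fold change of Aldh18a1 was 1.18, and without ffff240 that of Vldlr was 3.52. With limma-voom the log2 fold change of Aldh18a1 was 0.87 and that of Ddit3 0.78. Cebpb, the member that fell, is taken up again with the transcription factors.

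Of 25 hepatokines, proteins that the liver releases to signal to other organs, 3 rose and 6 fell (median -0.34). Gdf15, a stress hormone that lowers food intake through the hindbrain, was at 39.6, 48.7, 67.02 and 36.6 CPM in DKO and 0.692, 7.48, 6.63 and 7.195 CPM in ff;ff. The DKO livers lay together above all controls, of which ffff238 was by far the lowest (log2 fold change 3.1 ± 0.53, edgeR adjusted p = 0.00566). Fgf21 (ENSMUSG00000030827, GRCm38 chr7:45613886-45615490, - strand), a fasting hormone controlled by Ppara and ATF4, was at 46.2, 32.1, 72.4 and 86.3 CPM in DKO and 3.46, 18.2, 3.42 and 9.01 CPM in ff;ff. Again the groups did not overlap (log2 fold change 2.78 ± 0.60, edgeR adjusted p = 0.0183), but the adjusted p was 0.0527 without DKO247 and 0.058 with no filter on low counts. Enho, which encodes the peptide adropin, was at 2.29, 1.53, 3.87 and 4.301 CPM in DKO and 30.1, 16.8, 18.6 and 38.7 CPM in ff;ff (log2 fold change -3.1 ± 0.36, edgeR adjusted p = 3.47e-04). Angptl8, which restrains lipoprotein lipase, fell by 1.6 ± 0.42, and Lect2, Ahsg and Fetub fell by 1.24, 1 and 0.97. Beside Nrg1, the ErbB ligands Btc and Tgfa rose by 1.84 and 0.61, while the receptor Egfr, at 127, 112, 146 and 132 CPM in DKO and 435, 189, 651 and 290.2 CPM in ff;ff, was lower in every DKO liver than in any control (log2 fold change -1.6 ± 0.32, edgeR adjusted p = 0.00626). The call of Angptl8 (in 4) was lost in alternatives too, with adjusted p up to 0.0675. Without ffff248 Angptl8 stood at -0.998, and without ffff240 Fgf21 stood at 3.47.

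Genes of the antioxidant factor Nrf2, glutathione and the pentose phosphate pathway moved in both directions, 10 of 40 higher and 5 lower (median 0.00). Srxn1, sulfiredoxin, was at 239, 158, 369.9 and 349 CPM in DKO and 56.5, 56.1, 50.4 and 54.4 CPM in ff;ff. Controls were nearly equal and all DKO livers well above them (log2 fold change 2.36 ± 0.24, edgeR adjusted p = 9.37e-05). Cbr3 rose by 2.4, the NADPH enzyme Pgd by 1.29, Gclc, rate-limiting for glutathione, by 1.01 and glutathione reductase Gsr by 0.86. The 5 that fell were all glutathione transferases: Gstt3 (-1.92), Gstp1 (-1.23), Gsta4 (-1.03), Gstt1 (-0.82) and Gsta3 (-0.67). Gsta1, of the same enzyme class, rose, at 6.04, 1.97, 8.46 and 8.46 CPM in DKO and 0, 0.356, 0 and 0.0626 CPM in ff;ff (log2 fold change 5.65 ± 0.75, edgeR adjusted p = 6.28e-04), and so did Gstt2 (0.62), although close copies within the Gsta family make the share of reads uncertain. The number that fell was 3 without DKO232 or DKO247. The calls of Gsta3 (in 6), Gsta4 (in 3), Gstp1 (in 1) and Gstt2 (in 4) were lost in alternatives, with adjusted p up to 0.134.

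**Figure D3:**
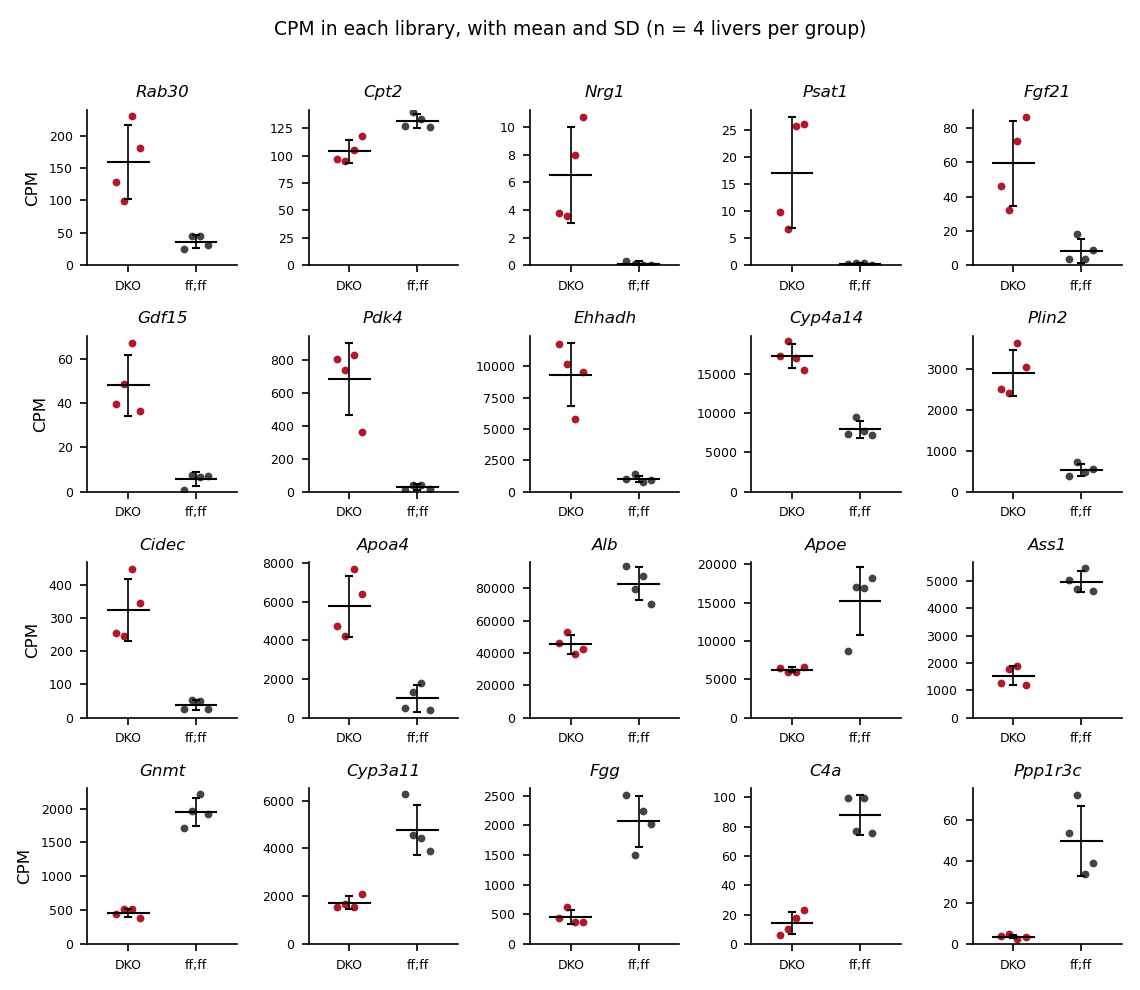
CPM (y axis, linear from 0, with its own range in each panel) of 20 genes named in the text, 1 panel each, for the 4 DKO and 4 ff;ff libraries, with each point 1 liver and the bar and whiskers the mean ± SD of the group. The DKO livers stand above the controls for genes of lipid oxidation and storage and of stress, and below them for secreted proteins and amino acid enzymes.

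Secreted plasma proteins, the main export of hepatocytes, fell broadly. Albumin (Alb, ENSMUSG00000029368, GRCm38 chr5:90460897-90476602, + strand), the most abundant transcript of the data, was at 46192, 53155, 39535 and 42517 CPM in DKO and 93376, 79749, 87602 and 69979 CPM in ff;ff. The groups did not overlap, and mean FPKM fell from 36112 to 19959 (log2 fold change -0.87 ± 0.19, edgeR adjusted p = 0.00961). Of 35 coagulation and fibrinolysis genes 22 fell and none rose (median -0.83), of 33 complement genes 19 fell and none rose (median -0.94), and of 30 acute phase genes 14 fell and none rose (median -1.14). These lists share members with each other and with the serpins.

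All 3 fibrinogen chains fell. Fgg was at 445, 617, 372 and 377 CPM in DKO and 2517, 1497, 2240.3 and 2019.5 CPM in ff;ff, each DKO liver below each control (log2 fold change -2.19 ± 0.22, edgeR adjusted p = 9.37e-05), and Fga and Fgb fell by 2.06 ± 0.20 and 1.56 ± 0.20. Coagulation factor F7 fell by 1.67, prothrombin F2 by 0.84, plasminogen Plg by 1.45 and antithrombin Serpinc1 by 0.66. In complement, C4a was at 6.11, 10.3, 17.9 and 22.9 CPM in DKO and 99.5, 77.1, 99.9 and 75.9 CPM in ff;ff, without overlap (log2 fold change -2.61 ± 0.35, edgeR adjusted p = 9.24e-04). C4a and C4b, which fell by 1.18, are close copies. The central component C3 fell less, at 4219.6, 4626, 3616 and 3149 CPM in DKO and 5805, 4891, 7779 and 8213.5 CPM in ff;ff (log2 fold change -0.77 ± 0.21, edgeR adjusted p = 0.0274), a call lost without DKO232, DKO247, DKO943, ffff242 or ffff248 (adjusted p up to 0.0848), and Mbl2, which starts the lectin pathway, fell by 1.86.

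Within the acute phase list, the haem-binding Hpx fell by 1.31 ± 0.29, haptoglobin Hp by 1.06 and Itih4 by 1.51. Saa1, a strongly inducible member, was at 5.696, 5.29, 4.003 and 6.01 CPM in DKO and 53.1, 20.3, 12.8 and 372 CPM in ff;ff. It was lower in all DKO livers, but the controls ran over a wide range with ffff248 far above the rest, and it did not pass (log2 fold change -4.44 ± 1.25, edgeR adjusted p = 0.0595). Without ffff248 it did, at -2.44 (adjusted p = 0.00661), as it did without ffff242 and in DESeq2's Wald test, limma-voom and the fit over 24 libraries (adjusted p up to 0.0427). Of 18 genes of the Serpina1, Serpina3 and murinoglobulin clusters 11 fell (median -1.29). Serpina1e, a copy of alpha-1 antitrypsin, was at 1882, 1838, 1765 and 3449 CPM in DKO and 8541, 4893, 5045 and 5285 CPM in ff;ff, with DKO943 apart from the other DKO livers and ffff238 apart from the other controls (log2 fold change -1.41 ± 0.27, edgeR adjusted p = 0.00413). Serpina3k and Mug1 fell by 1.25 and 1.41, and Serpina7, encoding thyroxine-binding globulin, was the exception and rose by 2.17. The members of these clusters are near-identical copies, and the share of each is uncertain. In the fit over 24 libraries Serpina1e lost its call (adjusted p = 0.329).

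Of 27 genes of apolipoproteins and VLDL assembly 11 fell and 3 rose (median -0.39), the fallen numbering 6 without DKO232 and 7 without DKO247 or ffff242. Apoa4 (ENSMUSG00000032080, GRCm38 chr9:46240696-46243459, + strand), an apolipoprotein induced by hepatic fat, was at 4726, 4231, 7684 and 6396 CPM in DKO and 483, 1335, 1788 and 375 CPM in ff;ff. Every DKO liver was above every control, and controls spanned a wider fold range than DKO livers (log2 fold change 2.53 ± 0.49, edgeR adjusted p = 0.00699). Mttp, which loads lipid onto the nascent particle, was at 709, 697, 529 and 647 CPM in DKO and 337, 361, 365 and 287 CPM in ff;ff (log2 fold change 0.94 ± 0.16, edgeR adjusted p = 0.00189). The structural protein Apob overlapped, at 7494, 7826, 5037 and 5640.5 CPM in DKO and 8620.2, 6813, 4957 and 6392 CPM in ff;ff (log2 fold change -0.04 ± 0.22, edgeR adjusted p = 0.923). Apoe, a ligand of lipoprotein receptors, was at 6463, 6013, 6001 and 6624 CPM in DKO and 8723, 17014, 16904 and 18292 CPM in ff;ff; ffff238 was close to the DKO range and the other controls far above it (log2 fold change -1.28 ± 0.23, edgeR adjusted p = 0.00312). Apom, Apoc1, the hepatic lipase Lipc and Apoc4 fell by 1.32, 1.25, 1.08 and 1.06, and Apoa2 by 0.57 ± 0.18. Apoa1, the main HDL protein, had log2 fold change -0.68 ± 0.25, edgeR adjusted p = 0.0939 and did not pass. It did without ffff238 (-0.83, adjusted p = 0.0305), in DESeq2's Wald test, in limma-voom, in the fit over 24 libraries and with no filter on low counts, with adjusted p up to 0.0406 in these. The calls of Apoa2 (in 8) and Apoa4 (in 1) were lost in alternatives, with adjusted p up to 0.122.

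Amino acid catabolism fell broadly: 27 of 45 genes of the urea cycle and amino acid breakdown were lower and none higher (median -0.93). Ass1, argininosuccinate synthase, was at 1285, 1776, 1901 and 1203 CPM in DKO and 5059, 4699.5, 5484 and 4654 CPM in ff;ff. The groups were widely separated (log2 fold change -1.69 ± 0.20, edgeR adjusted p = 2.03e-04). Otc and Asl, further urea cycle enzymes, fell by 1.32 and 1.11, whereas Cps1 (log2 fold change -0.37 ± 0.28, edgeR adjusted p = 0.418) did not pass. The serine dehydratase Sds fell by 2.42, glutaminase Gls2 by 1.88, and histidase Hal by 1.74.

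In the methionine and one-carbon cycle 13 of 22 genes fell and 2 rose (median -0.77). Gnmt, the abundant methyltransferase that uses up S-adenosylmethionine, was at 438, 510.0, 509.7 and 383 CPM in DKO and 1706, 1966, 2208 and 1924 CPM in ff;ff without overlap (log2 fold change -2.08 ± 0.17, edgeR adjusted p = 3.03e-05). Cth, which makes cysteine, was at 138, 183, 284 and 162 CPM in DKO and 1379, 682, 1058 and 855 CPM in ff;ff, also without overlap (log2 fold change -2.37 ± 0.27, edgeR adjusted p = 1.99e-04). Cbs, the step before it, fell by 1.74 ± 0.16, and Gamt, of creatine synthesis, by 2.4. The nicotinamide methyltransferase Nnmt also fell (-2.28). Mat1a, which makes S-adenosylmethionine, had log2 fold change -0.72 ± 0.24, edgeR adjusted p = 0.0586 and did not pass, though it did in 5 alternatives (adjusted p up to 0.0372), and the 2 that rose were Mthfd2 and methionine synthase Mtr (0.54). On the route from tryptophan to NAD, 8 of 20 genes fell and none rose (median -0.38). Beside Acmsd these were Ido2 (-2.04), Haao (-2.03 ± 0.17), Afmid (-1.74), Kyat1 (-1.61), Kynu (-1.48), Kmo (-0.65) and Qprt (-0.61). Among these genes Mtr lost its call in every fit with 1 library left out, which leaves 1 gene that rose. The calls of Mtr (in 9) and Kmo (in 4) were lost in alternatives, with adjusted p up to 0.157.

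Of 34 P450s of families 1 to 3, which metabolise steroids and drugs, 18 fell and 1 rose (median -0.75). Cyp3a11, the most abundant of the Cyp3a genes, was at 1559.9, 1685, 1534 and 2109 CPM in DKO and 6282, 4549.8, 4432 and 3880.5 CPM in ff;ff. All DKO livers were below all controls (log2 fold change -1.47 ± 0.20, edgeR adjusted p = 5.40e-04). Of the Cyp2c genes, Cyp2c70 (-3.05), Cyp2c50 (-2.47) and Cyp2c29 (-1.57) fell. Cyp2e1 did not pass, with log2 fold change -0.1 ± 0.19, edgeR adjusted p = 0.768, and Cyp2a22 rose by 3.26. Cyp2 and Cyp3 genes also stand in clusters of close copies. The calls of Cyp2c70 (in 7) and Cyp2a22 (in 1) were lost in alternatives, with adjusted p up to 0.127. The log2 fold change of Cyp2c70 was -3.92 without DKO943.

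Bile acid synthesis and transport had 10 of 25 genes lower and 1 higher (median -0.46). Abcb11, the pump that secretes bile salts, was at 57.6, 64.7, 35.7 and 85.4 CPM in DKO and 252, 208, 342 and 323 CPM in ff;ff. No DKO liver reached the lowest control (log2 fold change -2.21 ± 0.25, edgeR adjusted p = 2.34e-04). Akr1d1, a reductase of bile acid and steroid synthesis, was at 33.4, 66.1, 65.8 and 46.9 CPM in DKO and 272, 232, 197 and 203 CPM in ff;ff (log2 fold change -2.09 ± 0.22, edgeR adjusted p = 1.06e-04). Nr0b2, encoding the repressor SHP, was at 2.22, 4.52, 0 and 1.99 CPM in DKO and 8.73, 13.1, 40.4 and 23.1 CPM in ff;ff, with no read in DKO247 (log2 fold change -3.29 ± 0.88, edgeR adjusted p = 0.0437). Its call was lost without DKO232, DKO943, ffff240, ffff242 or ffff248, with an adjusted p of 0.118 at most. Cyp7a1, the rate-limiting enzyme, overlapped between groups at 43.9, 16.2, 71.99 and 89.2 CPM in DKO and 309.6, 128, 51.6 and 107 CPM in ff;ff (log2 fold change -1.43 ± 0.68, edgeR adjusted p = 0.211), went to -0.79 without ffff238, and passed in limma-voom alone (adjusted p = 0.0178). Abcb4, the phospholipid exporter of the canalicular membrane, was the member that rose (0.67). Without DKO233 Nr0b2 stood at -3.9.

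Glucose and glycogen genes changed at particular steps. Of 29 gluconeogenesis and glucose entry genes 6 fell and 3 rose (median -0.05). G6pc and Fbp1, the last steps of glucose output, fell by 1.47 and 1.23 and Pck1, the first committed step, by 0.68, while the glycerol channel Aqp3, at 5.07, 4.46, 2.26 and 3.099 CPM in DKO and 0.0864, 0.237, 0.1396 and 0 CPM in ff;ff, and glycerol kinase Gk (1.23) rose. Of 18 glycogen genes 4 fell and 3 rose (median 0.00). Ppp1r3b, another glycogen-targeting subunit, was at 22.4, 43.4, 30.2 and 26.2 CPM in DKO and 171, 216, 170.3 and 209 CPM in ff;ff without overlap (log2 fold change -2.65 ± 0.21, edgeR adjusted p = 3.03e-05). Phosphorylase Pygl fell by 1.02 and phosphoglucomutase Pgm1 rose by 2.06 ± 0.41. Of the glycogen genes 1 rose without ffff240 or ffff248. Pck1 lost its call in 7 alternatives, with adjusted p up to 0.124.

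Along the secretory pathway, some chaperones of the endoplasmic reticulum fell and a few Golgi genes rose. Of 34 ER chaperone and unfolded protein response genes 14 fell and 1 rose (median -0.46), the fallen numbering 8 without DKO232, DKO233 or DKO247. In Cpt2L-/- against ff;ff, 15 of these genes fell and 1 rose (median -0.50). Calr, calreticulin, was at 176, 172, 181 and 311 CPM in DKO and 568, 509, 582 and 436 CPM in ff;ff, with DKO943 the highest DKO liver but still below the controls (log2 fold change -1.32 ± 0.21, edgeR adjusted p = 0.00143). Pdia6, a disulfide isomerase, was at 44.2, 43, 47.7 and 80.7 CPM in DKO and 149.5, 131, 152 and 121 CPM in ff;ff, with the same order (log2 fold change -1.36 ± 0.20, edgeR adjusted p = 9.60e-04). Derl3 and Sdf2l1 fell by 3.47 and 2.4, and Hyou1, Pdia3 and Pdia4 by 1.08, 0.8 and 0.67. Hspa5, encoding BiP, was at 277, 267, 404 and 669 CPM in DKO and 738, 602, 751 and 495 CPM in ff;ff. DKO943 alone lay within the control range, and the gene did not pass (log2 fold change -0.68 ± 0.28, edgeR adjusted p = 0.127). Without DKO943 it did, at -1.03 (adjusted p = 0.0117), and in limma-voom (adjusted p = 0.00962). The co-chaperone Dnajb9 rose by 0.62. The calls of Pdia4 (in 4), Pdia3 (in 3) and Sdf2l1 (in 1) were lost in alternatives, with adjusted p up to 0.0824. Sdf2l1 stood at -3.32 without DKO943.

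Of 51 genes of ER to Golgi transport and golgins 7 rose and 3 fell (19.6% called, median 0.17), a share near the 16.1% of all genes. In Cpt2L-/- against ff;ff, 7 of these genes rose and 3 fell too (19.6% called, against 23.8% of all genes there). Arf4, a small GTPase of Golgi vesicle coats, was at 164, 154, 303 and 368 CPM in DKO and 136, 111, 115 and 105 CPM in ff;ff, where DKO247 and DKO943 were well above the other DKO livers (log2 fold change 1.09 ± 0.26, edgeR adjusted p = 0.0163). Tgoln1, which cycles between the trans-Golgi network and the cell surface, rose by 0.82 ± 0.14. The coatomer subunits Copb1 and Copa, the coat protein Sec24a, Golga4 and Arfgef1 rose by 0.56, 0.48, 0.6, 0.56 and 0.6, and Gorasp1, Tmed9 and Lman2 fell by 0.68, 0.67 and 0.53. Among 43 Rab GTPases, Rab30 rose together with Rab34, at 14.8, 13.9, 12.8 and 15.2 CPM in DKO and 4.84, 6.77, 3.91 and 6.44 CPM in ff;ff (log2 fold change 1.36 ± 0.20, edgeR adjusted p = 9.60e-04), Rab9 (0.72 ± 0.14) and Rab1a (0.7 ± 0.17), and Rab13 fell by 0.84. That is 11.6% called, below the share of all genes. As single libraries were left out, 2 to 9 ER to Golgi genes rose, with 2 without ffff248, 3 without DKO232 and 4 without DKO233 or ffff240. The calls of Copa (in 7), Golga4 (in 7), Sec24a (in 3), Copb1 (in 2), Arfgef1 (in 2), Tmed9 (in 5), Lman2 (in 1), Rab13 (in 6) and Rab1a (in 1) were lost in alternatives, with adjusted p up to 0.114.

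In the lysosome list 13 of 65 genes rose and 5 fell (27.7% called, median 0.07), with 8 rising where ffff240 was left out. Lipa, which hydrolyses cholesteryl ester and triglyceride in the lysosome, was at 471, 409, 365 and 419 CPM in DKO and 179, 153, 99.8 and 139 CPM in ff;ff without overlap (log2 fold change 1.54 ± 0.18, edgeR adjusted p = 2.47e-04). Cd63, a membrane protein of late endosomes, was at 18.5, 10.1, 21.7 and 44.3 CPM in DKO and 1.82, 3.15, 3.42 and 3.13 CPM in ff;ff (log2 fold change 3.03 ± 0.42, edgeR adjusted p = 0.00109), likewise without overlap. The proton pump subunits Atp6v1e1, Atp6v1h, Atp6v1b2 and Atp6v1c1 rose by 0.77, 0.65, 0.54 and 0.52. Gm2a and Ctsc fell by 1.55 and 1.2. Of 39 autophagy genes the receptors Sqstm1 (0.99) and Optn (0.65), Atg7 (0.55) and Atg12 (0.47) rose and Atg101 fell by 0.74, 12.8% called and below the 16.1% of all genes. Only 2 rose without DKO232, DKO233 or ffff248. The calls of Atp6v1c1 (in 6), Atp6v1h (in 3), Atp6v1b2 (in 1), Atg12 (in 6) and Atg7 (in 3) were lost in alternatives, with adjusted p up to 0.1.

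Transcription factors of metabolism were followed at the level of mRNA. Ppara was at 257, 275, 168 and 111 CPM in DKO and 80.4, 152, 150.1 and 97.8 CPM in ff;ff, overlapping between groups (log2 fold change 0.76 ± 0.30, edgeR adjusted p = 0.113), and did not pass. It did without DKO943, at 0.96 (adjusted p = 0.0312), and in DESeq2's Wald test, limma-voom and the fit over 24 libraries (adjusted p = 0.0497, 0.0201 and 0.0371). Pparg, the adipocyte member of that receptor family, was at 25.1, 25.7, 23.3 and 18.1 CPM in DKO and 7.69, 8.72, 4.96 and 9.39 CPM in ff;ff and rose (log2 fold change 1.58 ± 0.21, edgeR adjusted p = 4.70e-04). Of 33 metabolic nuclear receptors and hepatocyte factors Pparg rose and Nr0b2, Klf15 (-1.29), Cebpb (-1.03), Foxa3 (-0.86), Cebpa (-0.86) and Foxa2 (-0.77) fell, 21.2% called and near the 16.1% of all genes. The number that fell was 3 without DKO943 or ffff248 and 11 without ffff238. Glucocorticoid-induced genes fell in 4 of 15 cases (26.7% called, against 16.1% of all genes), including Fkbp5 (-1.05). They were led by Tsc22d3, which encodes the glucocorticoid-induced leucine zipper, at 34.9, 54.6, 70.96 and 61.2 CPM in DKO and 212, 210.5, 263 and 187 CPM in ff;ff (log2 fold change -1.97 ± 0.21, edgeR adjusted p = 1.15e-04). Of 20 circadian clock genes 4 fell and 2 rose (30% called, against 16.1% of all genes). Arntl, encoding Bmal1, fell by 1.75, Nfil3 by 1.58 and Cry1 by 1.05, and Bhlhe41 and Bhlhe40 rose by 1.79 and 1.12. Of the glucocorticoid-induced genes 2 fell without DKO232, DKO233 or ffff248. The calls of Cebpb (in 8), Cebpa (in 2), Fkbp5 (in 7) and Cry1 (in 2) were lost in alternatives, with adjusted p up to 0.152.

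Genes of both ends of the liver lobule were among those that fell. Of 22 genes typical of periportal hepatocytes 13 fell and 2 rose (median -1.15), and of 23 pericentral genes 9 fell and none rose (median -0.66). The pericentral Rhbg, Gulo and Glul fell by 2.42, 1.72 and 1.22, the periportal Aldh1b1, Hsd17b6 and Cyp2f2 by 2.34, 2.04 and 1.94, and the 2 periportal genes that rose were the lipid genes Apoa4 and Hsd17b13 (0.89). Whether one zone differed from the other was not tested. The calls of Hsd17b6 (in 5) and Hsd17b13 (in 3) were lost in alternatives, with adjusted p up to 0.091.

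Further gene lists covered mitochondria, ribosomes, interferon, iron, growth and urinary proteins. Of 79 nuclear genes of oxidative phosphorylation 10 fell and none rose (12.7% called, below the 16.1% of all genes, median -0.22), with 4 falling without DKO247 and, without ffff238, 16 falling and 3 rising, the largest fall being Uqcr11 (-1.23), and none of 13 genes of the mitochondrial genome passed (median 0.02). Of 81 cytosolic ribosomal protein genes Rpl12 (0.82) and Rps12 (0.79) rose and none fell (2.47% called, median 0.06). Of 44 interferon-induced genes 8 fell, led by Isg15 (-1.72) and Irf7 (-1.53), and none rose (18.2% called, median -0.52). That number was 1 without DKO247 or ffff248, 3 to 5 without DKO232, DKO233, DKO943, ffff238 or ffff240, and 16 without ffff242. Of 23 iron genes 8 fell, among them transferrin Trf (-1.07) and Tfr2 (-0.61), and ferritin heavy chain Fth1 rose by 0.63 ± 0.17. Without DKO247, 4 iron genes fell, and without DKO943 or ffff248, 5 did. Of 33 cell cycle and p53 genes 5 rose and 2 fell, 21.2% called and near the 16.1% of all genes. Gadd45a rose by 2, Mcm2 by 1.54 and cyclin Ccnd1 by 1.22, and Birc5 and Rrm2 fell by 1.8 and 1.67. Of this list 2 genes rose without DKO943 and 3 without ffff240. Of 26 genes of growth hormone, IGF and insulin signalling Stat5a (0.69) and Igfbp3 (0.62) rose and Egfr, Igfbp4 (-0.8) and Pik3r1 (-0.65) fell (19.2% called), with 5 falling without ffff242 and 1 rising without DKO232, DKO247, DKO943, ffff240 or ffff248. Of 19 major urinary protein genes, which are near-identical copies, Mup10 (-2.88) and Mup20 (-1.64) fell (10.5% called, median -1.19), with 9 falling without DKO943, and of 6 pyruvate dehydrogenase kinases and phosphatases only Pdk4 passed. The calls of Trf (in 6), Isg15 (in 5), Tfr2 (in 4), Fth1 (in 4), Mcm2 (in 2), Igfbp3 (in 6), Mup20 (in 8), Mup10 (in 1) and Rps12 (in 1) were lost in alternatives, with adjusted p up to 0.44.

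Markers of the cell types of the liver were followed as whole lists. The summed level of 10 hepatocyte markers was 62751 to 76004 CPM in DKO and 103000.0 to 139830.0 CPM in ff;ff, without overlap, and 6 of the 10 fell, all secreted proteins such as Ttr (-0.83) and Trf. The 16 tested markers of Kupffer cells and macrophages split: Cd68, at 28.6, 23.1, 59.7 and 61.5 CPM in DKO and 5.36, 4.69, 5.79 and 8.13 CPM in ff;ff (log2 fold change 2.85 ± 0.34, edgeR adjusted p = 4.35e-04), and Gpnmb, at 9.31, 4.905, 16.7 and 4.301 CPM in DKO and 0.0864, 0.712, 0.489 and 0.188 CPM in ff;ff (log2 fold change 4.48 ± 0.60, edgeR adjusted p = 6.64e-04), rose without overlap, while 8 fell, among them C1qa (-1.27), Cd163 (-0.84), Clec4f (-0.65) and Csf1r (-0.57). Cd68 and Gpnmb encode proteins of the lysosomal membrane of macrophages. The sum over Kupffer markers was 263 to 362 CPM in DKO and 321 to 547 CPM in ff;ff and overlapped, but without Cd68 it was 234 to 302 CPM in DKO and 316 to 539 CPM in ff;ff, apart. Cholangiocyte markers summed to 26.5 to 37.9 CPM in DKO and 51.9 to 82.8 CPM in ff;ff, with Tff3 and Sox9 (-1.45) lower and the other 7 of 9 not past the thresholds. Without Tff3 these sums were 25.8 to 35.6 CPM in DKO and 25.3 to 48.7 CPM in ff;ff and overlapped. For stellate cells the sum was 506 to 559 CPM in DKO and 275 to 543 CPM in ff;ff, with Col4a1 higher (1.07), and for sinusoidal endothelial cells 446 to 575 CPM in DKO and 419 to 642 CPM in ff;ff, where none of 16 markers passed. Markers of T, B and NK cells, neutrophils, red cells and pancreatic acinar cells had 3, 2, 5 and 1 genes with enough counts to test, of which none passed, and no adipocyte or muscle gene was testable. The sums without the member that differed most were added after seeing the data, and for hepatocytes, without Alb, they stayed apart at 17529 to 31019 CPM in DKO and 33024 to 52226 CPM in ff;ff. The part of cell composition in the results above was not tested. The calls of Csf1r (in 8), Clec4f (in 8), C1qa (in 4) and Cd163 (in 1) were lost in alternatives, with adjusted p up to 0.342.

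**Figure D4:**
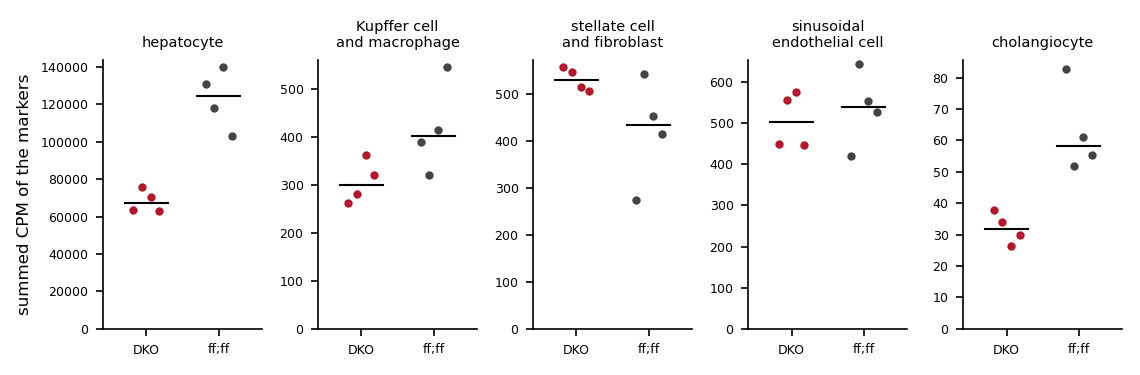
Summed CPM of the markers of 5 liver cell types (panels) in each of the 4 DKO and 4 ff;ff libraries (points), with a line at the median of each group. The groups stand apart for hepatocyte and cholangiocyte markers, both lower in DKO, and overlap for the other 3, and the cholangiocyte sums overlap once Tff3 is left out.

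The DKO livers were then set against the 4 livers labelled Cpt2L-/-, the group that by its label lacks Cpt2 alone. The Cpt2L-/- mice are not labelled as littermates of either group, so litter and genotype cannot be told apart, and CPM here were scaled over these 8 libraries. Of 13306 genes tested 360 (2.71%) passed, 183 (1.38%) higher and 177 (1.33%) lower in DKO, against 3155 of 13270 (23.8%) for Cpt2L-/- against ff;ff. Rab30 did not pass, at 143, 111, 255 and 197 CPM in DKO and 133, 142, 202 and 162 CPM in Cpt2L-/- (log2 fold change 0.15 ± 0.24, edgeR adjusted p = 0.763). Values against ff;ff are given side by side and share the same 4 control livers. The calls rested on few libraries: 57 genes passed without Cpt2802, 98 without DKO233, 117 without Cpt2166 and 445 without DKO247. Of the 24 genes named below as past the thresholds, Cyp3a11, Akr1d1, Slc1a2 and Rab36 kept the call under all 14 alternatives tried, and the other 20 lost it under at least 1.

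Counts of the lists between DKO and Cpt2L-/- are read against the 2.71% of all genes that passed. In the lists of ATF4 and mitochondrial stress response (37 genes), thioesterases (12), triglyceride synthesis (15), lysosome (64), coagulation (35) and methionine metabolism (22) no gene passed, and in mitochondrial fatty acid oxidation 1 of 28 (3.57%) did, which for lists of this size is near the share of all genes. That gene was Etfb, at 14.7, 18.5, 15.4 and 17.2 CPM in DKO and 33.9, 32.4, 73.1 and 40.95 CPM in Cpt2L-/- (log2 fold change -1.45 ± 0.24, edgeR adjusted p = 0.0158), a call lost without Cpt2802 and in the fit over 24 libraries (adjusted p up to 0.167). A p that missed the threshold does not show that the genotypes were alike.

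Members of several lists were higher in DKO than in Cpt2L-/-. Cyp3a11 was at 1733, 1879, 1700.1 and 2308 CPM in DKO and 671, 443, 646 and 489 CPM in Cpt2L-/-. Every DKO liver was above every Cpt2L-/- liver (log2 fold change 1.76 ± 0.17, edgeR adjusted p = 2.54e-04), and the log2 fold changes against ff;ff were -1.47 for DKO and -3.23 for Cpt2L-/-. Akr1d1 was at 37.1, 73.7, 72.9 and 51.3 CPM in DKO and 15.4, 15.3, 7.55 and 6.102 CPM in Cpt2L-/- (log2 fold change 2.41 ± 0.34, edgeR adjusted p = 0.0113), with -2.09 and -4.49 against ff;ff. Akr1d1 did not overlap between the genotypes either. Slc1a2, a glutamate transporter of pericentral hepatocytes, was higher in DKO by 1.53 ± 0.23, the lipase Ces1d by 1 ± 0.18, the cortisol-regenerating enzyme Hsd11b1 by 0.94 ± 0.18, the bile acid importer Slc10a1 by 0.75 ± 0.15 and squalene synthase Fdft1 by 0.76 ± 0.15. Against ff;ff, Ces1d and Fdft1 stood at 0.66 and 0.28 in DKO, neither past the thresholds. The calls of Ces1d (in 4), Hsd11b1 (in 6), Slc10a1 (in 5) and Fdft1 (in 6) were lost in alternatives, with adjusted p up to 0.113.

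Of the ER to Golgi genes 1 of 51 (1.96%) passed, Sar1b, and of the ER chaperone genes 1 of 33 (3.03%), Dnajb9, near the 2.71% of all genes. Sar1b, the GTPase that forms COPII vesicles and is needed for lipoprotein export, was at 257, 284, 226 and 245 CPM in DKO and 165, 172, 191 and 167 CPM in Cpt2L-/- (log2 fold change 0.54 ± 0.11, edgeR adjusted p = 0.0327), a call lost without any of DKO232, DKO233, Cpt2164, Cpt2166 or Cpt2802 and in the fit over 24 libraries (adjusted p up to 0.186). Dnajb9 was at 121, 116, 108 and 124 CPM in DKO and 84.6, 76.6, 82.3 and 65.1 CPM in Cpt2L-/- (log2 fold change 0.6 ± 0.11, edgeR adjusted p = 0.0237), with 0.62 in DKO and 0.02 in Cpt2L-/- against ff;ff. For both, the lowest DKO liver was above the highest Cpt2L-/- liver. The iron hormone Hamp was at 603, 841, 1280.5 and 969.7 CPM in DKO and 436, 492, 548 and 546 CPM in Cpt2L-/- (log2 fold change 0.87 ± 0.20, edgeR adjusted p = 0.0426), with -0.12 and -0.99 against ff;ff. Among clock genes Cry1 and Nfil3 were higher by 1.51 and 1.39, while Nr1d1 was lower, at 60.1, 38.1, 29.6 and 40.2 CPM in DKO and 118, 88.1, 80.6 and 105 CPM in Cpt2L-/- (log2 fold change -1.22 ± 0.20, edgeR adjusted p = 0.0147). The calls of Dnajb9 (in 5), Hamp (in 9), Cry1 (in 5), Nfil3 (in 6) and Nr1d1 (in 2) were lost in alternatives, with adjusted p up to 0.144.

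Of 27 genes of apolipoproteins and VLDL assembly 2 were lower in DKO than in Cpt2L-/-, Apoe and Apoc4, and 3 were higher, Ces1d, Sar1b and the apolipoprotein Apon (0.98). Of 40 genes of the Nrf2, glutathione and pentose phosphate list 3 were lower and none higher. Apoe was at 7179, 6706, 6651 and 7247 CPM in DKO and 10559, 9311, 12524 and 11744 CPM in Cpt2L-/- (log2 fold change -0.67 ± 0.13, edgeR adjusted p = 0.0256), with -1.28 in DKO and -0.6 in Cpt2L-/- against ff;ff, and Apoc4 was lower by 0.95 ± 0.22. Nqo1, the quinone reductase used as a readout of Nrf2, was at 9.34, 7.89, 11.02 and 9.21 CPM in DKO and 16.3, 17.1, 14.2 and 14.03 CPM in Cpt2L-/- (log2 fold change -0.72 ± 0.15, edgeR adjusted p = 0.0327), and Cbr1 and Cbr3 were lower by 0.84 and 1.68. For each of these the genotypes did not overlap. The droplet proteins Fitm1 and Cideb were lower by 1.27 and 0.48, liver pyruvate kinase Pklr by 0.79 and Rab36, the one Rab GTPase of 44 past the thresholds, by 1.16 ± 0.16. The calls of Apoc4 (in 8), Apon (in 7), Apoe (in 5), Nqo1 (in 8), Cbr1 (in 4), Cbr3 (in 6), Fitm1 (in 6), Cideb (in 9) and Pklr (in 4) were lost in alternatives, with adjusted p up to 0.376.

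**Figure D5:**
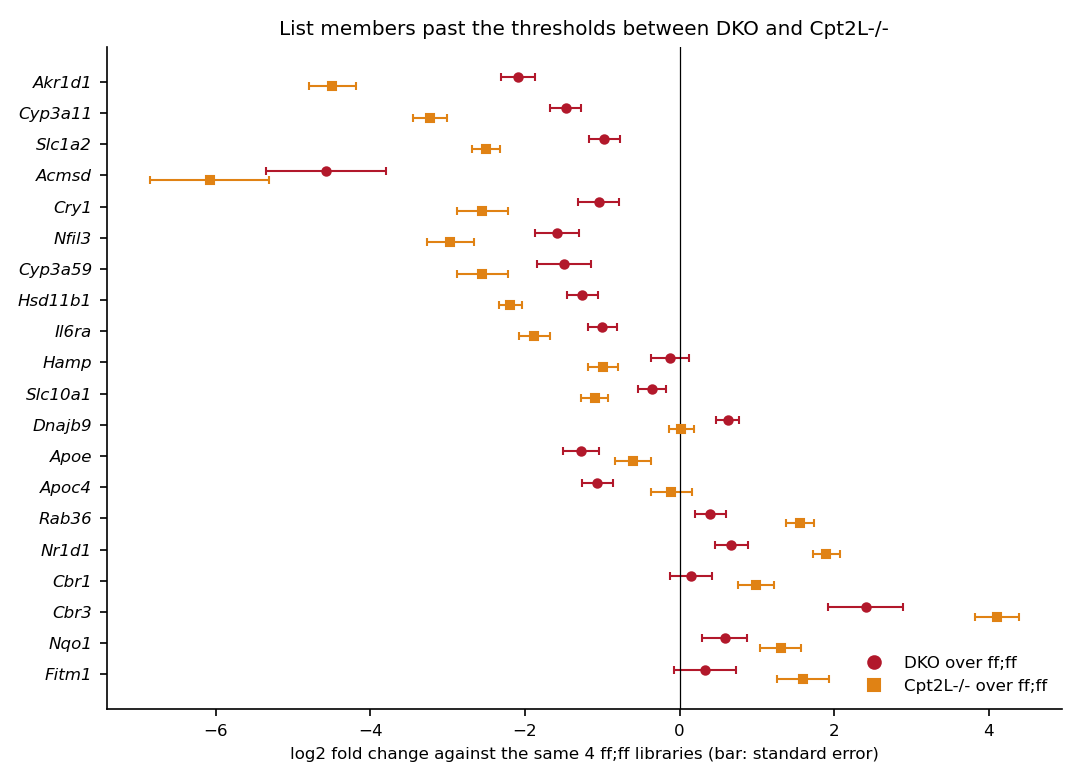
Log2 fold change (x axis, ± SE) against the same 4 ff;ff livers of 20 gene list members past the thresholds between DKO and Cpt2L-/- (rows), for DKO and for Cpt2L-/- livers. For Cyp3a11 and Akr1d1 the DKO point lies closer to 0 than the Cpt2L-/- point, and for Apoe it lies farther below 0.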

How the data were processed

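RNA-seq of whole liver was analysed for 8 of the 24 libraries of the series, 4 labelled DKO and 4 labelled ff;ff, with 4 libraries labelled Cpt2L-/- as a reference, and groups were taken from the genotype labels. For each gene the authors deposited whole-number read counts that had not been normalized, together with FPKM values, which take gene length and library size into account. Per the submitters' processing notes, the tools were HISAT2 and DESeq2 and the builds mm10 and GRCm38; the study's methods name DESeq2 as the tool that normalized counts for work on all genotypes together, while the counter and the use of strand were not given in the sources used here, so overlapping and antisense genes and near-identical copies were treated as uncertain. The authors also deposited a table of normalized counts and tables of their own comparisons, with log2 fold changes and p-values, and neither was used. All columns of per-sample values matched 1 library label.

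Counts were tested with edgeR 4.0.16 in R 4.3.3 (TMM scaling, filterByExpr, quasi-likelihood F test) on the 8 libraries of each comparison, with Benjamini-Hochberg adjustment over all genes tested, an adjusted p under 0.05 and a change of at least 1.2-fold. The steps were first tested on simulated data. Where every library of the lower group held at most 3 counts, only a lower bound of the fold was given, against 3 counts in each of its libraries, which covers counting error only. Genes were grouped by 44 gene lists and 10 marker lists. The comparison and the lists were chosen with earlier results of these data known. Genes were named by a rule: the targeted genes, the 12 largest changes in each direction among protein-coding genes without overlap and with a mean of at least 50 scaled counts in the higher group, the 8 most abundant genes called in each direction, and members of the lists picked as examples by size of change, level, or how well they are known. Results on a few of these genes are not reported here. Alternatives used DESeq2 1.42.0, limma 3.58.1, all 24 libraries, other filters and fold limits, and each library left out. No label pairs livers by litter, and p-values measure the spread between single livers of a genotype. Within each group every pair of libraries differed by more than counting noise. Motifs were searched in RefSeq promoter windows of GRCm38.p6. Depth was similar in both groups, and values of a few counts per library are the least precise.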

Additional observations from a re-analysis of the deposited data

Results flagged for a closer look

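Among the genes named as targeted, largest or most abundant changes, 84 groups of 4 libraries were examined for a library standing apart from the other 3 by Dixon's criterion, and 6 did so. Chance alone flags about 1 in 20 groups. Fabp3 was at 0.297 CPM in ffff240 and had no read in the other ff;ff libraries. Fam107a was at 3.16 CPM in DKO247 (0.347 to 0.701 CPM in the other DKO libraries) and at 158 CPM in ffff242 (11.4 to 27.9 CPM in the other ff;ff libraries). Apoe was at 8723 CPM in ffff238, against 16904 to 18292 CPM in the other ff;ff libraries. Serpina1e was at 3449 CPM in DKO943 (1765 to 1882 CPM in the other DKO libraries) and at 8541 CPM in ffff238 (4893 to 5285 CPM in the other ff;ff libraries). The library ffff238 was thus the outlying control for both Apoe and Serpina1e, lower than the other controls for the first and higher for the second.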

How the results depend on the processing

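No paired analysis was possible because the labels of the DKO and ff;ff mice share no replicate number and do not say which mice were of 1 litter. For DKO against ff;ff, the 2157 genes past the thresholds became 3742 with limma-voom and quality weights (1833 higher, 1909 lower) and 988 at a limit of 2-fold (451 higher, 537 lower). Leaving out 1 library at a time gave 1485 to 2675 genes, 725 to 1321 higher and 727 to 1354 lower, the lowest count of lower genes coming without DKO232. For DKO against Cpt2L-/-, the 360 genes became 1032 with DESeq2's Wald test (532 higher, 500 lower), 1535 with limma-voom (742 and 793), 114 in a fit over 24 libraries (68 and 46), 705 with no filter on low counts (352 and 353) and 152 at 2-fold (83 and 69). Leaving out 1 library gave 57 to 445, with 32 to 242 higher and 25 to 203 lower, and counts over 1.5 times below the full set came without DKO232 (188), DKO233 (98), Cpt2164 (229), Cpt2166 (117), Cpt2801 (143) and Cpt2802 (57). The causes of these shifts were not tested. Of the 252 genes named as changed between DKO and ff;ff, 178 kept the call under all alternatives and 74 lost it under at least 1, most often without ffff248 (47 genes) or DKO232 (44 genes). None of these 252 reversed. Reversals befell genes that had not passed. With limma-voom, Apob went to 0.10 and Asns to -0.21, and Rab30 to -0.078 between DKO and Cpt2L-/-. With 1 library left out, Apob ranged from -0.17 to 0.10, Asns from -0.41 to 0.48, Hamp from -0.32 to 0.059, Cbr1 from -0.029 to 0.49, and Rab30 between DKO and Cpt2L-/- from -0.087 to 0.32. The alternatives for single genes of the comparison with Cpt2L-/- were chosen after seeing the data. With 4 livers a group, a gene that did not pass may still have changed, and counts over whole genes do not show the floxed exon.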
